A study of Mus musculus with 12 samples.

Results

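The membrane-bound mucins measured here were Muc1, Muc3, Muc3a, Muc4, Muc13 and Muc20, chosen by gene symbol from the expression table of the study. All 6 symbols were among its 17734 genes, and all 6 passed the filter on low values, which asked for an average FPKM of 0.1 or more. The study sequenced RNA from the rectum of male C57BL/6 mice of 8 to 10 weeks, in 4 groups of 3 mice each, to ask how berberine (BBR), a plant alkaloid, changes gene expression in colitis. Normal mice had plain drinking water. Colitis mice had 2.5% dextran sulfate sodium (DSS), a polymer that injures the lining of the large bowel, in the water for 7 days. The other 2 groups, 1 normal and 1 with colitis, had the same water and received BBR by gavage at 100 mg/kg a day, for 6 days by the sample labels and 7 days by the methods. All mice were of 1 strain with no engineered allele named, and DSS gives an acute chemical injury, not a spontaneous disease.

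Membrane-bound mucins are large proteins with a long, heavily O-glycosylated extracellular stretch, a transmembrane segment and a short cytoplasmic tail. In the intestine they stand on the apical face of epithelial cells and form much of the glycocalyx, beneath the mucus gel that goblet cells secrete. Several of them carry domains like that of epidermal growth factor, and some of their tails bind signalling proteins.

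The deposited values were read as FPKM, a unit scaled for transcript length and depth, so that levels can be set side by side between genes. Differences were tested with limma as log2(FPKM + 0.1) in 1 fit over all 12 mice, and adjusted p-values are Benjamini-Hochberg values over the 15315 genes tested. In bulk tissue, fewer cells of a type and less RNA per cell cannot be told apart. Epithelial genes were present in every mouse. The summed FPKM of 14 epithelial markers was 13068 to 18483 in normal and 13393 to 19154 in colitis mice. Between these groups 0 of the 14 passed limma's adjusted test, against 1.08% of all genes. At an unadjusted P of 0.05 it was 0 of 14, against 21.4%. The most abundant, Lgals4, Krt8 and Krt19, differed by 0.04, −0.26 and −0.20 (log2). With BBR the sums were 11329 to 17110 in normal and 11157 to 15411 in colitis mice. Between normal mice with and without BBR all 14 log2 differences were negative. Their median was −0.23, beside −0.02 for all genes, and 0 passed either limit. With BBR in colitis mice 2 were positive and 12 negative, with a median of −0.12. The mice numbered 4, 1 in each group, stood apart, with column totals of 482194 to 504337 FPKM and 872 to 1086 genes at 0, against 696286 to 765876 FPKM and 1332 to 1926 genes in the other 8 mice. Beside several results, the differences between the mice numbered 4 and between the others are given on their own. The table holds no read counts, and the step between low values put 1 read at 51.0 to 57.5 FPKM times bases in these mice and at 70.0 to 77.5 in the others. These are rough estimates, since the steps fitted loosely, with scores of 0.14 to 0.43 where 1 would be a perfect fit.

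Muc13 and Muc3 made up 97.9 to 99% of the summed FPKM of the members in each mouse. The sum was 3565 to 4343 FPKM in normal mice, 3399 to 4024 in normal mice receiving BBR, 4822 to 6425 in colitis mice and 5287 to 8346 in colitis mice receiving BBR. The sum in colitis mice lay above both normal groups in every mouse, with or without BBR. As a percentage of the column total, it was 0.491 to 0.899 in normal and 0.839 to 0.956 in colitis mice. These shares overlapped, and the highest normal share was in the mouse numbered 4. With BBR the shares were 0.479 to 0.757 in normal and 1 to 1.11 in colitis mice, which did not overlap. The other members were far lower, in the order Muc3a, Muc1, Muc4 and Muc20 by their means over the 12 mice of 42.3, 23.1, 13.1 and 0.547 FPKM. Ranges of Muc3a, Muc1 and Muc4 overlapped over the 12 mice, and Muc20 lay under all of them.

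**Figure D1:**
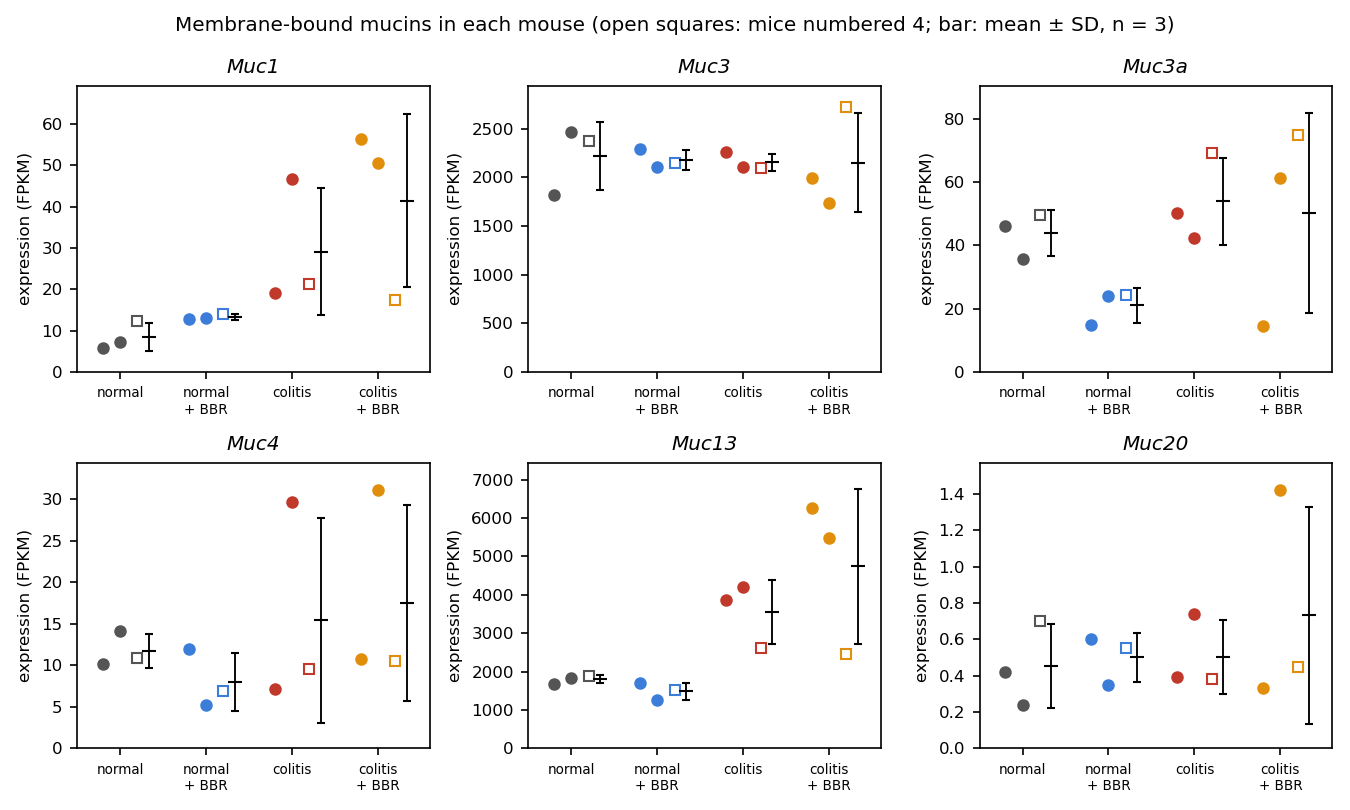
Expression of each mucin in FPKM on a linear axis that starts at 0, with 1 symbol per mouse and open squares for the mice numbered 4. The bars give the mean and SD of the 3 mice of a group. Muc13 and Muc1 sit higher in every colitis mouse than in every normal mouse, while Muc3 stays between 1736 and 2719 FPKM in all 12.

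Muc13, an epithelial mucin with domains like that of epidermal growth factor, lies at chr16:33794037-33819934 on the plus strand (GENCODE vM21, GRCm38), where 184 of its exonic bases lie opposite those of Gm15657. Its FPKM was 1680, 1822 and 1890 in normal mice numbered 1, 3 and 4. It was 3854, 4200 and 2624 in colitis mice numbered 1, 2 and 4. All colitis mice lay above all normal mice, and the mouse numbered 4 was the lowest of the colitis mice. The group means were 1797 ± 107 and 3559 ± 828 FPKM (SD, n = 3), a log2 difference of 0.96 (SE 0.48, 95% interval −0.09 to 2.01). Its limma p was 0.0691 and its adjusted p 0.261, so the difference did not pass. Between the mice numbered 4 alone the log2 difference was 0.47, and over the mice numbered 1 to 3 it was 1.2.

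With BBR in both groups the log2 difference of Muc13 was 1.58, and its distance from 0.96, the interaction of 0.62, did not pass (limma adjusted p = 1). Normal mice receiving BBR, numbered 1, 3 and 4, had 1693, 1254 and 1511 FPKM of Muc13. Colitis mice receiving BBR, numbered 2, 3 and 4, had 6271, 5492 and 2465 FPKM. The groups did not overlap, and the mouse numbered 4 stood far below the rest of its group. The means were 1486 ± 220 and 4742 ± 2011 FPKM (SD, n = 3), and that log2 difference had an interval above 0 (SE 0.48, 95% interval 0.53 to 2.62, limma adjusted p = 0.215). It was 0.71 in the mice numbered 4 and 2.01 in the mice numbered 1 to 3. With the mice numbered 4 as a block the adjusted p was 0.0441, where 1.75% of all genes were called, and without these 4 mice it was 0.0272, where 15.8% were called. The call turned on how they were handled.

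Muc1, whose cytoplasmic tail binds beta-catenin and receptor kinases, lies at chr3:89229057-89233381 on the plus strand. Normal mice numbered 1, 3 and 4 had 5.75, 7.19 and 12.2 FPKM. Colitis mice numbered 1, 2 and 4 had 19.2, 46.8 and 21.2 FPKM. The lowest colitis mouse lay above the highest normal mouse, and 1 colitis mouse, numbered 2, was well above the rest. Means were 8.38 ± 3.39 and 29.1 ± 15.4 FPKM (SD, n = 3), and the log2 difference of 1.73 was the largest of the 6 members (SE 0.46, 95% interval 0.73 to 2.73, limma adjusted p = 0.0798). In the mice numbered 4 the log2 difference was 0.79 and in the others 2.2. The adjusted p was 0.0435 with the mice numbered 4 as a block, where 9.22% of all genes were called, and 0.0371 without them, where 6.18% were called. It was 0.022 without the colitis mouse receiving BBR numbered 4, where 5.41% of all genes were called, against 0.273 at most when another mouse was left out.

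Normal mice receiving BBR had 12.8, 13.0 and 14.1 FPKM of Muc1 in the mice numbered 1, 3 and 4. Colitis mice receiving BBR had 56.3, 50.7 and 17.5 FPKM in those numbered 2, 3 and 4. These groups did not overlap either, and the lowest colitis mouse receiving BBR was the mouse numbered 4. The log2 difference was 1.47 (SE 0.46, 95% interval 0.47 to 2.47, limma adjusted p = 0.215), with 0.32 in the mice numbered 4 and 2.04 in the others. Its adjusted p was 0.0866 with the mice numbered 4 as a block and 0.03 without these 4 mice, where 15.8% of all genes were called. Ordered by mean, Muc1 ran from colitis with BBR over colitis and normal with BBR to normal, and only the upper pair of that order overlapped.

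Likeness between members was described by the mean absolute difference over the 12 mice, after each member was centred on its own mean of log2(FPKM + 0.1). Among all pairs of members, Muc1 and Muc13 were at 0.42, Muc4 and Muc20 at 0.43 and Muc3 and Muc20 at 0.47, and the other pairs lay between 0.53 and 1.03. The 250 bases before a start of Muc1 and of Muc13 are shown because these were the members whose colitis and normal groups did not overlap. They are from RefSeq on GRCm38.p6, both on the plus strand, and 5 of the 6 members had an entry there. Capitals mark matches to a GC box, an E-box, a TATA box, an AP-1 motif or a STAT motif, searched on both strands.
Muc1, chr3:89228806-89229055: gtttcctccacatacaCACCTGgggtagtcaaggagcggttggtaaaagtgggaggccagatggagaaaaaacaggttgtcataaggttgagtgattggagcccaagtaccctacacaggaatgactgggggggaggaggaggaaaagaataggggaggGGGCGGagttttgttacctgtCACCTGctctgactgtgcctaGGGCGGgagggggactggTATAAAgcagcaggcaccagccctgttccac
Muc13, chr16:33793787-33794036: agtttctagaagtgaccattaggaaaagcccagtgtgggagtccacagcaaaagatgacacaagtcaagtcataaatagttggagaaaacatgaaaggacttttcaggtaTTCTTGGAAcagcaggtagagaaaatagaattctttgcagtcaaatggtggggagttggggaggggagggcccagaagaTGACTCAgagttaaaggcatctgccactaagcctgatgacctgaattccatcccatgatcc
The Muc1 window held 2 GC boxes at -91 and -49, 2 E-boxes at -234 and -70 and a TATA box at -31, counted from the RefSeq start. The Muc13 window held 1 STAT motif at -140 and 1 AP-1 motif at -61. RefSeq gives Muc13 a second start inside the gene, whose window, chr16:33794239-33794488, held 1 AP-1 motif at -179 and no STAT motif. The GC box was searched as GGGCGG, which 32.7% of 32851 windows of 250 bases before mouse gene starts held. The E-box was searched as CACCTG, found in 17.2% of these windows. For the TATA box the letters were TATAAA, found in 12.4%. For AP-1 they were TGANTCA, found in 6.75%. For STAT they were TTCNNNGAA, found in 7.02%. None of these motifs was found in the windows of both Muc1 and Muc13, and none of the 3 windows held the NF-kappaB motif, which 7.25% of windows did.

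Muc3, a main mucin of the enterocyte glycocalyx, lies at chr5:137134922-137149322 on the minus strand in GENCODE vM21. The RefSeq window before the start of Muc3, chr5:137166047-137166296, lies beyond that span, so the 2 annotations differ on its extent. FPKM depends on transcript length, so the level of Muc3 beside other genes rests on the model used. The FPKM of Muc3 was 1822, 2465 and 2373 in normal mice numbered 1, 3 and 4. In colitis mice numbered 1, 2 and 4 it was 2257, 2106 and 2098. The colitis mice all lay inside the range of the normal mice. The log2 difference was −0.03 (SE 0.39, 95% interval −0.88 to 0.81, limma adjusted p = 0.969). With BBR it was 2292, 2102 and 2146 FPKM in normal mice numbered 1, 3 and 4. It was 1993, 1736 and 2719 FPKM in colitis mice numbered 2, 3 and 4, the lowest and highest values of the series. Its level varied by 1.57-fold over the 12 mice, against 5-fold for Muc13 and 9.79-fold for Muc1. The sign of its small differences turned with the scaling: after median centring the log2 difference between colitis and normal mice was 0.30.

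The order of the 2 main mucins within a mouse differed between the groups. Muc13 over Muc3 was 0.739 to 0.922 in normal mice and 0.597 to 0.739 in normal mice receiving BBR, so Muc3 was the higher one in all 6. In the 3 colitis mice the ratio was 1.25 to 1.99. In colitis mice receiving BBR it was 3.15, 3.16 and 0.906, the last in the mouse numbered 4, where Muc3 stayed above Muc13. Set against Epcam, an adhesion protein of epithelial cells, Muc13 was 1.58 to 2.17 in normal, 1.38 to 1.92 in normal with BBR, 2.95 to 3.6 in colitis and 3.16 to 6.2 in colitis with BBR. Muc1 over Epcam was 0.00617 to 0.014, 0.0118 to 0.0178, 0.0167 to 0.0402 and 0.0224 to 0.0557 in the same order. Without BBR, both ratios were higher in every colitis mouse than in every normal mouse, the mice numbered 4 included. With BBR the same held, while Muc1 over Epcam in the lowest colitis mouse without BBR lay under the highest normal mouse receiving BBR. Epcam itself was 873 to 1154 FPKM in normal and 890 to 1165 in colitis mice (log2 difference 0.12, limma adjusted p = 0.835).

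**Figure D2:**
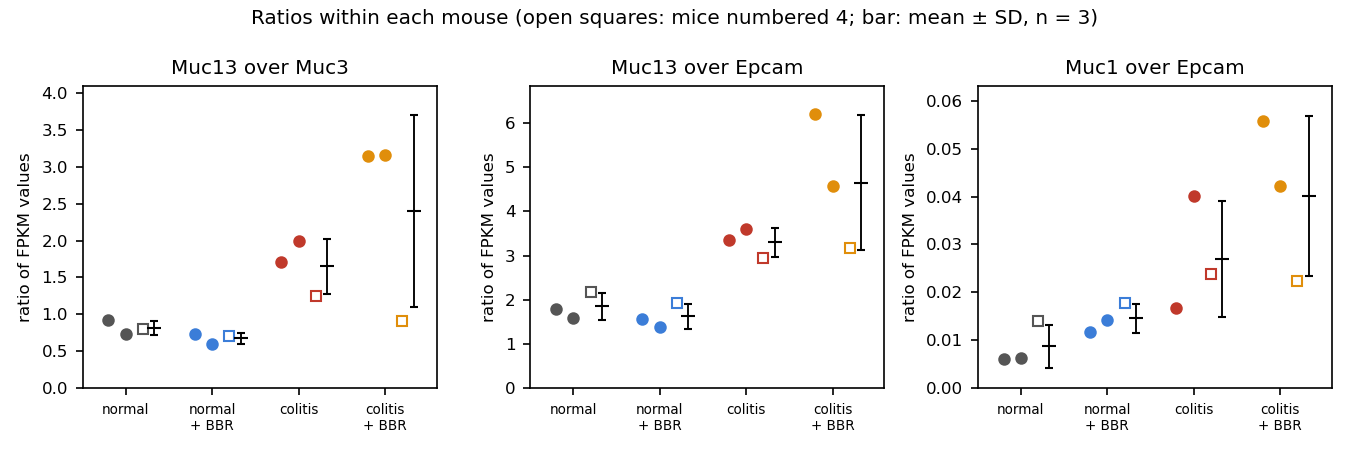
Ratios of FPKM values within each mouse on linear axes that start at 0, with open squares for the mice numbered 4 and bars for the mean and SD of 3 mice. Muc13 over Muc3 is under 1 in all 6 mice without DSS and over 1 in 5 of the 6 mice with DSS. The colitis mouse receiving BBR numbered 4 is the exception, at 0.906.

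Muc3a, a neighbouring mucin gene at chr5:137208813-137212389 on the minus strand, was the member that differed most between normal mice with and without BBR. Normal mice numbered 1, 3 and 4 had 46.3, 35.6 and 49.7 FPKM. Those receiving BBR had 14.7, 24.1 and 24.3 FPKM. Every mouse with BBR lay under every mouse without it. The log2 difference was −1.08 (SE 0.50, 95% interval −2.16 to 0.01, limma adjusted p = 1), and it was −1.03 in the mice numbered 4 and −1.10 in the others. The 14 epithelial markers were all negative in this comparison too, with a median of −0.23 and a lowest of −1.05 (Cdx2). Their part in the Muc3a difference was not tested. Colitis mice numbered 1, 2 and 4 had 50.2, 42.3 and 69.1 FPKM of Muc3a. Those receiving BBR, numbered 2, 3 and 4, had 14.6, 61.4 and 74.9. With BBR in colitis, 1 mouse was as low as the normal mice receiving BBR and the rest were not, and the log2 difference from colitis mice was −0.38 (SE 0.50, 95% interval −1.46 to 0.71, limma adjusted p = 1). Without that low mouse, numbered 2, the difference was 0.36, and it was 0.12 in the mice numbered 4 and −0.62 in the others. The GENCODE vM21 transcripts of Muc3 and Muc3a shared no run of 50 bases, the read length, on the same strand. Nor did those of any other pair of members, and opposite strands were not searched. These models hold 1943 exonic bases for Muc3 and 1887 for Muc3a, and bases outside them were not searched. Sharing of reads in the authors' alignment to mm9 was not tested.

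Muc4, which can form a complex with the receptor ErbB2, lies at chr16:32735886-32782391 on the plus strand. Normal mice numbered 1, 3 and 4 had 10.2, 14.1 and 10.9 FPKM, and colitis mice numbered 1, 2 and 4 had 7.18, 29.6 and 9.49. Only the colitis mouse numbered 2 was above the normal mice. The log2 difference was 0.13 (SE 0.54, limma adjusted p = 0.9), and it was −0.48 without that mouse. Normal mice receiving BBR had 11.9, 5.22 and 6.87 FPKM, and colitis mice receiving BBR had 10.8, 31.1 and 10.5. All groups overlapped, and 1 mouse in each colitis group held its high value.

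Muc20, a small mucin known to bind the receptor Met, lies at chr16:32777419-32797435 on the minus strand. The lowest of the members, it ranked 10263 to 13822 among the 17734 genes over the mice. It was 0.42, 0.24 and 0.7 FPKM in normal mice numbered 1, 3 and 4 and 0.39, 0.74 and 0.38 in colitis mice numbered 1, 2 and 4. With BBR it was 0.6, 0.35 and 0.55 in normal mice and 0.33, 1.42 and 0.45 in colitis mice. All groups overlapped, and the reads behind these values were roughly estimated at 9.4 to 56.4 a mouse. The log2 difference between colitis and normal mice was 0.16 (95% interval −0.96 to 1.28, limma adjusted p = 0.863). Muc4 and Muc20 overlap on opposite strands by 627 exonic bases, 15.6% of those of Muc20 and 5.33% of those of Muc4. Whether reads were counted by strand is not given in the sources used here, so reads there cannot be told apart. The highest Muc20 value was in the mouse with the highest Muc4 value.

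Across the members, colitis against normal gave 0 of 6 past limma's adjusted limit, where 1.08% of all genes passed. At an unadjusted P of at most 0.05, 1 of the 6 (Muc1, higher) passed, against 21.4% of all genes and 5.56% of genes in that direction. The groups did not overlap for Muc1 and Muc13, both higher in colitis, against 29.3% of all genes in either direction and 7.1% in that direction. The median log2 difference of the 6 members was 0.22 and that of all genes tested −0.32, which became −0.05 with quantile normalization and 0.02 with median centring. Under those scalings Muc1 was at 1.94 and 2.07 and Muc13 at 0.89 and 1.30. For 3 mice against 3, the smallest p of an exact two-sided permutation test is 0.1, which Muc1 and Muc13 reached.

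Between colitis mice receiving BBR and normal mice receiving BBR, 0 of 6 members passed the adjusted limit in limma, and 0.0392% of all genes did. At an unadjusted P of at most 0.05, 2 of the 6 passed, Muc13 and Muc1, against 19.7% of all genes and 2.37% in their direction, higher. The same pair did not overlap, against 20.2% of all genes in either direction and 2.26% of genes that were higher. Muc3a and Muc4 had log2 differences of 0.98 and 1.00 with adjusted p-values of 0.277 and 0.294, and for Muc3a it was 1.62 in the mice numbered 4 and 0.66 in the others. Leaving out 1 mouse moved that of Muc3a to between 0.54 and 1.72. The median of the members was 0.99 and that of all genes −0.40, which became −0.03 with quantile normalization and 0.06 with median centring. With quantile normalization the median of the members was 1.28.

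Between colitis mice with and without BBR the 6 log2 differences lay between −0.38 for Muc3a and 0.46 for Muc1. Limma called 0 of 6, against 0% of all genes, and 0 of 6 passed an unadjusted P of 0.05, against 6.39%. All 6 members overlapped, where 7.08% of all genes did not. For Muc13 the difference was 0.33 (95% interval −0.71 to 1.38), for Muc1 0.46 (−0.54 to 1.46) and for Muc3 −0.03 (−0.87 to 0.82), so these data bound a change only loosely. In the mice numbered 4 Muc1 and Muc13 differed by −0.28 and −0.09, and in the others by 0.83 and 0.54.

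In normal mice, BBR gave 0 of 6 members past limma's limit, against 0% of all genes, and 0 of 6 at an unadjusted P of at most 0.05, against 1.36%. Muc3a, lower with BBR, and Muc1, higher with BBR, did not overlap, where 9.62% of all genes did not (4.17% higher and 5.46% lower). Muc1 differed by 0.73 on the log2 scale (SE 0.46, limma adjusted p = 1), with 0.20 in the mice numbered 4 and 0.99 in the others. The interaction, which asks whether the BBR difference differed between colitis and normal mice, lay between −0.27 for Muc1 and 0.88 for Muc4. It called 0 of 6 members and 0% of all genes in limma, and 0 of 6 members and 2.42% of all genes at an unadjusted P of at most 0.05.

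**Figure D3:**
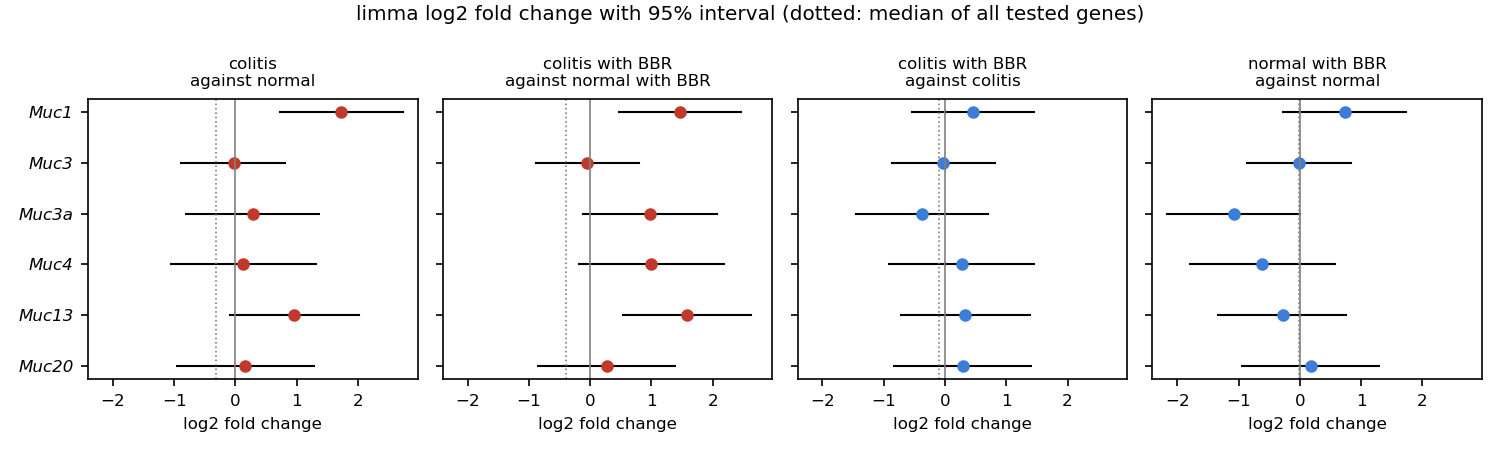
limma log2 differences of the 6 mucins (points) with 95% intervals (lines) in 4 comparisons, with a solid line at 0 and a dotted line at the median of all genes tested. The intervals of Muc1 lie above 0 in both comparisons of colitis with normal mice and that of Muc13 in the one with BBR, before adjustment over all genes.

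Other cell types differed between these groups beside the mucins. The summed FPKM of 9 smooth muscle markers was 1686 to 3224 in normal mice, 2378 to 5136 in normal mice receiving BBR, 89 to 707 in colitis mice and 498 to 3589 in colitis mice receiving BBR, and 8 of the 9 were lower in colitis at an unadjusted P of at most 0.05, as were 15.9% of all genes, while 0 of the 9 passed limma's adjusted test. In the mice numbered 4 it was 707 FPKM in colitis and 3589 in colitis with BBR, the highest of each group. Tagln, Acta2 and Actg2, contractile genes and the most abundant of this list, had log2 differences of −2.36, −2.83 and −3.09 in colitis. That of 8 granulocyte markers was 0.43 to 3.25, 0.89 to 3.02, 45.6 to 487 and 3.04 to 211 in the same order of groups. The lowest value of both colitis groups was in the mouse numbered 4, and the other mice were at 470 and 487 FPKM in colitis and at 198 and 211 in colitis with BBR. By limma's adjusted test 2 of the 8 were higher in colitis, against 1.08% of all genes in either direction. These were S100a8, listed at 0 in every normal mouse and at 24.9 to 336 FPKM in colitis mice, and Mmp8, at 0 to 0.03 and 0.44 to 3.49 FPKM. The S100a8 call was lost in 6 of 12 fits that left out 1 mouse (each normal mouse, the normal mouse receiving BBR numbered 1 and the colitis mice numbered 1 and 2), with adjusted p-values of up to 0.115. That of Mmp8 was lost in 8 of 12 (these and the normal mice receiving BBR numbered 3 and 4), with up to 0.146. S100a9 and Clec4d, the next most abundant of the list, had log2 differences of 8.66 and 3.95 with limma adjusted p-values of 0.0514 and 0.0555. Sums of 10 leukocyte markers were 192 to 265, 147 to 434, 307 to 554 and 120 to 281, and their most abundant, Cd74, Cd52 and Cd68, differed by 0.75, 1.04 and 1.2 in colitis (log2). Of these 10, 8 were positive and 2 negative (Cd79a at −1.42 and Cd3e at −0.13, both of lymphocytes), 0 passed limma's adjusted test and 4 were higher at an unadjusted P of at most 0.05, as were 5.56% of all genes. In the same order, squamous markers, of which 10 of 12 were in the table, summed to 2.81 to 3.64, 2.69 to 3.21, 2.86 to 9.42 and 1.33 to 6.4 FPKM, with Krt4 and Krt6a at 0 in all normal mice and log2 differences of 1.92, −0.28 and −0.10 in colitis for Krt13, Krt10 and Krt14. The other 2 squamous markers tested, Krt6a and Dsg3, were at 2.18 and 1.43, and 0 of the 5 passed limma's adjusted test. At an unadjusted P of at most 0.05, 2 of the 5 were higher, as were 5.56% of all genes. Endothelial markers, 8 in number, summed to 29.5 to 32.2, 27.6 to 31.8, 9.84 to 29.6 and 9.85 to 19.6 FPKM, with −1.37, −0.64 and 0.06 for Pecam1, Emcn and Egfl7. Of these 8, 1 was positive and 7 negative in colitis, with a median of −1.02 and 0 called by limma's adjusted test. At an unadjusted P of at most 0.05, 3 were lower, as were 15.9% of all genes. With BBR in both groups all 8 were negative and 4 were lower at that limit, as were 17.3% of all genes. The part of these cells in the differences of Muc1 and Muc13 was not tested.

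The protein part of a mucin carries O-glycans, which begin with N-acetylgalactosamine put on by GalNAc transferases and are then built into cores, extended and capped. Of 22 tested genes for cores, extension and capping, 13 had positive and 9 negative log2 differences between colitis and normal mice, with 1 called higher and 1 lower by limma's adjusted test, against 1.08% of all genes. At an unadjusted P of at most 0.05 there were 5 higher and 6 lower, against 21.4% of all genes. The median was 0.26, beside 0.22 for the mucins and −0.32 for all genes. Their 3 most abundant genes were St6galnac6, B3gnt7 and St3gal4, with log2 differences of 0.53, −0.69 and −0.85 and adjusted p-values of 0.203 to 0.479.

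Fut2, the fucosyltransferase that puts terminal fucose on mucin glycans, was the gene called higher. It was 59.3, 43.0 and 50.5 FPKM in normal mice numbered 1, 3 and 4 and 176, 192 and 188 in colitis mice numbered 1, 2 and 4. The groups were far apart, and the mice numbered 4 lay among the others. The log2 difference was 1.87 (SE 0.30, limma adjusted p = 0.0195). The call was lost in 5 of 12 fits that left out 1 mouse, without any of the 3 normal mice or without the colitis mouse numbered 1 or 2, with adjusted p-values of at most 0.107. With BBR, Fut2 was 33.7 to 46.9 FPKM in normal and 90.1 to 226 in colitis mice (log2 difference 1.70, limma adjusted p = 0.106).

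St6galnac2, a sialyltransferase that adds sialic acid to the first sugar of the O-glycan, was the gene called lower. Normal mice numbered 1, 3 and 4 had 21.7, 19.3 and 16.0 FPKM, and colitis mice numbered 1, 2 and 4 had 3.64, 4.35 and 7.99. No colitis mouse reached the lowest normal mouse. The log2 difference was −1.88 (SE 0.39, limma adjusted p = 0.0466), close to the limit. It was lost in 9 of 12 fits that left out 1 mouse, all but those without the colitis mouse numbered 4 or the colitis mice receiving BBR numbered 3 or 4, with adjusted p-values of up to 0.19. With BBR, St6galnac2 was 8.92 to 19.4 FPKM in normal and 4.2 to 10.4 in colitis mice, which overlapped (log2 difference −1.02, limma adjusted p = 0.222).

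Of the GalNAc transferases, 13 of 14 were tested, 3 with positive and 10 with negative log2 differences and a median of −0.30. None of the 13 passed limma's adjusted test, and 4 of 13 passed an unadjusted P of 0.05, 2 in each direction, against 21.4% of all genes. The most abundant, Galnt7, Galnt6 and Galnt4, differed by −0.22, −0.30 and −0.09 with adjusted p-values of 0.426 to 0.802.

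**Figure D4:**
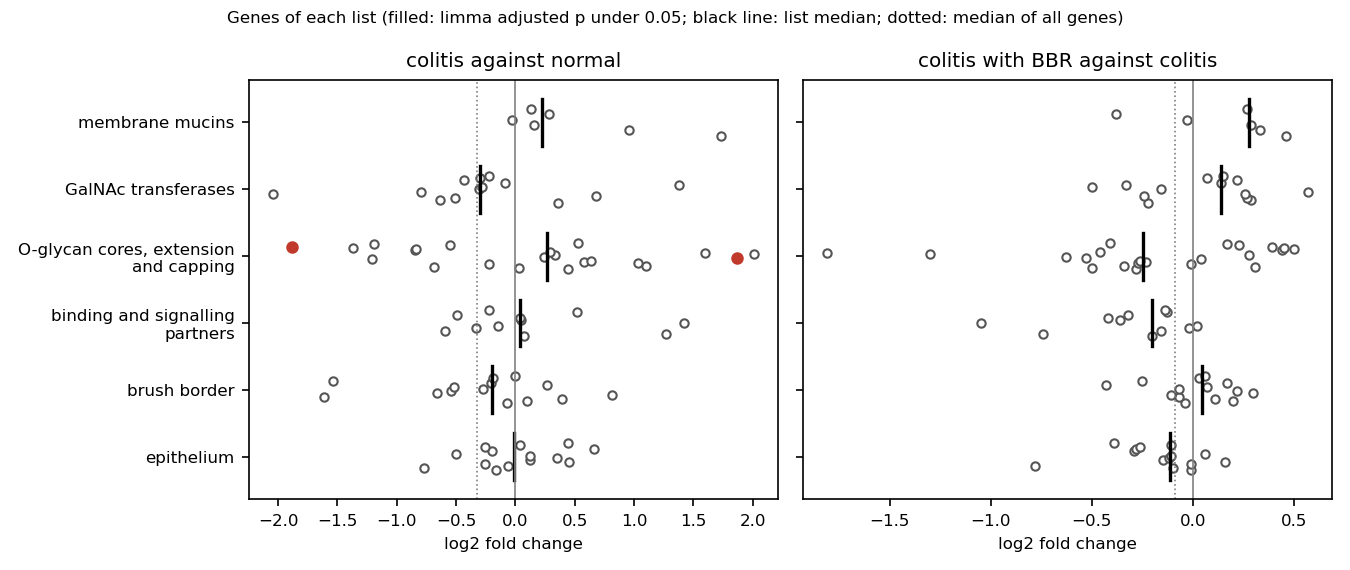
limma log2 differences of each gene in 6 lists, for colitis against normal mice and for colitis mice with against without BBR. Filled points passed the adjusted limit of 0.05, black lines are list medians and the dotted line is the median of all genes tested. Only Fut2 and St6galnac2 are filled, both in the first panel.

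Genes that anchor the apical membrane and bind mucin tails did not pass the test. Of 14 brush border genes 4 had positive and 10 negative log2 differences in colitis, with a median of −0.20, 0 called by limma and 3 at an unadjusted P of at most 0.05, all lower, as were 15.9% of all genes. Cdhr5, Ezr and Vil1, a protocadherin, a linker to actin and an actin bundler of microvilli, were the most abundant, at 0.39, −0.54 and −0.00. Of 11 binding and signalling partners of these mucins 6 were positive and 5 negative, with a median of 0.04, 0 called and 1 at an unadjusted P of at most 0.05, against 21.4% of all genes. Lgals3, Ctnnb1 and Lgals1, of which the galectins bind mucin glycans and beta-catenin binds the tail of Muc1, differed by −0.49, 0.07 and 0.04.

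Genes whose pattern over the 12 mice was most like that of a member were found by the same mean absolute difference of centred log2 values, among 11938 genes with a mean of at least 1. Prr13 was closest to Muc13 at 0.104, followed by Tmc5 at 0.225 and Slc45a3 at 0.231, where the median gene was at 0.88. Prr13 had group means of 291, 262, 599 and 654 FPKM in normal, normal with BBR, colitis and colitis with BBR. Muc1 had no gene that near, with Tc2n at 0.402, Cd68 at 0.404 and Gm44504 at 0.428 against a median of 1.04. For Muc3 the nearest were Eps15l1 at 0.080, Cdk19 at 0.103 and Gnb1 at 0.104, against 0.36. Ccne1, Mybl2 and Kremen2 were nearest to Muc3a at 0.238 to 0.319 against 0.76, and Slc23a3, H2bc6 and Gpr55 to Muc4 at 0.274 to 0.314 against 0.73. The mice share depth and their groups across all these genes, and the order describes these 12 libraries.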

How the data were processed

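RNA from the rectum (colorectum in the labels) of 12 mice was sequenced as single reads of 50 bases. The authors filtered reads with SOAPnuke, aligned them with Bowtie2 2.2.5 to mm9 and estimated expression with RSEM 1.2.12, per the labels and the submitters' processing notes. The labels and the methods name different library kits and sequencers. The authors deposited a single estimate for each gene in each mouse, which from its values was taken as FPKM, though it may be TPM. Groups and mouse numbers come from the labels. Here, 15315 genes with a mean of at least 0.1 were fitted as log2(FPKM + 0.1) with limma 3.58.1 in R 4.3.3 (1 mean per group, empirical Bayes with trend), with Benjamini-Hochberg adjustment over all of them. This scale understates changes of low genes. Differences rest on 3 mice a group. The script was tested on simulated data.

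The members and lists were chosen with earlier results of these data known. The text names all members, and of each list the genes past the adjusted limit and the 3 most abundant. Further genes of the cell type lists were named after their values were seen. Positions are from GENCODE vM21 and promoters from RefSeq, on GRCm38, since the table gives no coordinates. Python 3.11.15, pandas 2.3.3, NumPy 2.4.6, SciPy 1.17.1 and matplotlib 3.10.9 were used. The alternatives tried were other pseudocounts (0.01 and 1), other filters (none, and a mean of 1), quantile normalization, median centring, a fit without trend, a fit of only the groups compared, a block for the replicate number or for the mice numbered 4, and leaving out mice.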

Additional observations from a re-analysis of the deposited data

How the results depend on the processing

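The adjusted limit of limma called 0 of 6 mucins in every comparison, with 1 (colitis against normal) and 2 (colitis with BBR against normal with BBR) at an unadjusted P of at most 0.05. In these comparisons it called 1 and 1 with the mice numbered 4 as a block, 1 and 2 without these 4 mice, and 0 to 1 and 0 to 2 when 1 mouse was left out, the higher counts only without the colitis mouse receiving BBR numbered 4, where 5.41% and 14.7% of all genes were called. The calls so turned on the handling of these libraries, and leaving out that 1 mouse gave the same counts as leaving out all 4. It is in neither group of colitis against normal and enters that comparison only through the shared fit. Without all 4, 2 mice a group remain.

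With the replicate block 0 of 6 were called in every comparison, where 4.79% (colitis against normal) and 0.0457% (with BBR in both) of all genes were, with adjusted p-values of 0.0697 for Muc1 in colitis against normal and 0.0981 for Muc13 in colitis with BBR against normal with BBR. In colitis against normal this block called 3 O-glycan genes (Fut2, Gcnt4 and B4galnt2), 4 of 9 smooth muscle markers (Myh11, Acta2, Synpo2 and Lmod1), 5 of 8 granulocyte markers, 2 of 12 goblet cell markers (Retnlb and Klk1) and 1 of 8 endothelial markers, against 2, 0, 2, 0 and 0 without it. The labels do not say what a number marks. Deviations of mice of 1 number correlated at 0.08 to 0.75 (mean 0.34, and 0.50 for the number 4), and those of different numbers at -0.53 to 0.46 (mean -0.10), and with a lowest value under 0.1 the numbers were not taken to pair the mice.

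Over 679 member values under alternatives, 630 kept direction and side, 8 passed the limit (5 of Muc1, 3 of Muc13) and 41 turned sign, 24 of Muc3 and 11 of Muc20, with adjusted p-values of at least 0.667. The cause was not tested. The order below is colitis against normal, BBR in colitis mice, BBR in normal mice, colitis against normal with BBR in both, and the interaction. Muc3 was 0.30, 0.12, 0.02, 0.41 and 0.10 with median centring. With quantile normalization it was 0.06 for BBR in colitis mice, 0.00 for BBR in normal mice and 0.06 in the interaction. Without the 4 mice numbered 4 Muc3 was 0.04 for colitis against normal and 0.05 for BBR in normal mice, and Muc20 -0.08 in the interaction. Leaving out 1 mouse gave, in the same order, -0.17 to 0.05, -0.21 to 0.11, -0.15 to 0.07, -0.23 to 0.10 and -0.20 to 0.13 for Muc3, and -0.15 to 0.47, -0.26 to 0.65, -0.13 to 0.49, -0.28 to 0.63 and -0.44 to 0.47 for Muc20. Muc4 ran from -0.48 to 0.53 for colitis against normal and from -0.25 to 0.88 for BBR in colitis mice, Muc3a from -0.82 to 0.36 for the latter and Muc1 from -0.57 to 0.27 in the interaction. St6galnac2 missed the limit with a pseudocount of 0.01, with either other filter, with no trend and with the replicate block (adjusted p 0.054 to 0.058), and Fut2 kept its call in all of these. Muc20 was not tested at a mean of at least 1, and the compared groups alone were not run for the interaction.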

Other observations

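Muc2, the gel-forming mucin that goblet cells secrete, was 440, 415 and 581 FPKM in normal mice numbered 1, 3 and 4 and 352, 1105 and 645 in colitis mice numbered 1, 2 and 4. The groups overlapped, and the log2 difference was 0.41 (limma adjusted p = 0.521). Colitis mice receiving BBR had 833, 1287 and 792 FPKM and normal mice receiving BBR 420, 440 and 474, which did not overlap (log2 difference 1.09, limma adjusted p = 0.219). In colitis mice Muc13 over Muc2 was 3.8 to 10.9, against 3.25 to 4.39 in normal mice. Muc6 and Muc5ac were at no more than 0.66 and 0.06 FPKM in any mouse, and Muc5b was listed at 0 in every mouse. Of other membrane-bound or mucin-like genes, Cd164, Mcam and Emcn were tested and 0 of 3 passed limma's adjusted limit, with log2 differences of 0.24, -1.76 and -0.64 in colitis against normal, of which Mcam had an unadjusted P of at most 0.05, as did 21.4% of all genes. Muc16, a membrane-bound mucin at no more than 0.1 FPKM in any mouse, did not pass the filter on low values. Muc12, Muc15, Muc17 and Muc21 were not analysed here.

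Goblet cell markers, 12 in number, summed to 17081 to 40100 FPKM in normal and 11921 to 78611 in colitis mice, and colonocyte markers, 10 in number, to 8741 to 20347 and 6766 to 30334. None of these markers passed limma's adjusted limit between these groups, and at an unadjusted P of 0.05 or less there were 3 of 12 goblet cell markers and 1 of 10 colonocyte markers, against 21.4% of all genes. In the mice numbered 4 the goblet cell sum was 17081 FPKM in normal and 11921 in colitis, and the colonocyte sum 8741 and 6766, the lowest of each group. Of the 12 goblet cell markers 4 had positive and 8 negative log2 differences, from -2.40 (Klk1) to 5.71 (Retnlb, limma adjusted p = 0.0577), with a median of -0.15. The most abundant, Zg16, Tff3 and Clca1, differed by -0.12, -0.02 and -0.83 on the log2 scale, and the most abundant colonocyte genes, Saa1, Car4 and Car1, by 0.98, 0.07 and -0.46.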
